A study of Mus musculus with 5 samples.

Results

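The regions described here are stretches of PU.1 signal that lie at an end of a protein-coding gene. Deposited 10 bp windows with gaps of 100 bp or less were merged into regions, windows with an input count of 1000 or more were left out, and an autosomal region was kept when a window lay within 500 bp of the start or end coordinate of a gene span. Of 67237 regions in all, 7479 met this rule. The strand of a gene was known for 16456 of 20661 autosomal protein-coding genes, which split the members into 5130 regions at 5′ ends, 657 at 3′ ends and 161 at both kinds of end. A further 1531 regions touched an end of a gene whose strand is not in the table used here, and they are given apart. The annotation is RefSeq on GRCm38.p6 (the mm10 build), and it was used as gene spans, without exons or UTRs.

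PU.1 was mapped by chromatin immunoprecipitation and sequencing (ChIP-seq) in conventional (cDC) and plasmacytoid (pDC) dendritic cells of mice labelled C56BL/6. Both cell types were generated with Flt3L, a cytokine that drives dendritic cell development in culture, and no genotype, treatment or age is stated. Each cell type had 2 biological replicates precipitated with the T-20 antibody, and the 1 input library came from cDCs only. Totals over windows ranged from 6896416 to 11388554 counts in the PU.1 libraries, lower in pDCs (8099633 and 6896416) than in cDCs, so pDC values carry the larger counting error. Those totals count a read in several neighbouring windows, and the sequencing depth is unknown.

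PU.1, encoded by Spi1, is an ETS-family transcription factor of the blood lineages that binds purine-rich DNA around a GGAA core. In myeloid cells it is known for opening distal enhancers together with lineage partners, and it also binds near gene starts. cDCs are specialised in presenting antigen to T cells, whereas pDCs are known for type I interferon secretion. The 5′ end of a gene holds its promoter, which in many broadly expressed genes is rich in CpG dinucleotides. ChIP signal measures neither expression nor cell purity, so the identity of the cells was not checked here, and PU.1 signal at marker genes is described only as such.

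The first sequences shown are those of the strongest 5′ ends with a PU.1 recognition sequence upstream of the start and near the highest window. Promoter sequences of RefSeq on GRCm38.p6, 250 bases before to 50 after a start, were searched on both strands for GAGGAAGT, a PU.1 sequence, and the printed stretches are read along the gene's strand with the match in capitals (as its reverse complement where the match lies on the other strand). The first set holds the 4 strongest 5′ ends in which the match lay within 50 bp of the highest window. They are chr7:3898213-3898300 (Gm14548, minus strand), chr1:193201547-193201618 (Traf3ip3, minus), chr1:92934269-92934356 (Capn10, plus) and chr10:10558208-10558290 (Rab32, minus).
Gm14548: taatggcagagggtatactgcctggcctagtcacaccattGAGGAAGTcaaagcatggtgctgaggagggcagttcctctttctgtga
Traf3ip3: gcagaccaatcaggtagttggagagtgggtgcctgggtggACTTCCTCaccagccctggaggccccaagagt
Capn10: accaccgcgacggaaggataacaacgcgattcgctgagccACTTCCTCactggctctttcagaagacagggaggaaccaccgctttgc
Rab32: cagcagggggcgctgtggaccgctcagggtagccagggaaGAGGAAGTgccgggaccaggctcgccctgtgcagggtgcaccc

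The second set holds starts with the same letters and a call between the cell types. Signal was higher in pDCs at Areg, an EGF-family ligand (chr5:91139433-91139520, plus), and at Vav1, a guanine nucleotide exchange factor of blood cells (chr17:57279049-57279099, plus). It was higher in cDCs at Fbxo28 (chr1:182341607-182341694, minus) and Cttnbp2nl (chr3:105053147-105053213, minus). These genes, and those of the sets above and below, were chosen after their values were seen.
Areg: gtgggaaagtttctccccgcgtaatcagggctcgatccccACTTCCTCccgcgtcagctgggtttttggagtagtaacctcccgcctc
Vav1: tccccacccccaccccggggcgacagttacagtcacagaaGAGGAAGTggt
Fbxo28: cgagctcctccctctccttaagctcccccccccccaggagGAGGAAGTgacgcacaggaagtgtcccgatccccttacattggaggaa
Cttnbp2nl: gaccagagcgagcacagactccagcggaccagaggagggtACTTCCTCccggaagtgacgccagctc

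The printed stretches of the third set lack GAGGAAGT, which for Cd209d says nothing of the rest of the promoter. Kifc1 (chr17:33890756-33890843, minus) and Nup54 (chr5:92435260-92435315, minus) hold CCGGAAGT, an ETS sequence common in CpG-rich promoters. The Kifc1 stretch also holds gaggaaga shortly before the capitals, which differs from the PU.1 letters in its last base only. Its signal is thus not shown to lack a PU.1 sequence. Cd209d (chr8:3878549-3878609, minus), a C-type lectin gene, holds an ETS-IRF composite, GGAA followed after any 2 bases by GAAA, which PU.1 can bind together with IRF4 or IRF8.
Kifc1: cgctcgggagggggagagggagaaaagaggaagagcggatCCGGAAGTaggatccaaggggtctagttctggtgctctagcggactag
Nup54: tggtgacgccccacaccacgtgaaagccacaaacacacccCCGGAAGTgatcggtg
Cd209d: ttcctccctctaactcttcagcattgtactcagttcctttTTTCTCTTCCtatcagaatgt

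None of the 4 starts of the first set was called different between the cell types. Signal is given as CPM (counts scaled to the library size) at the highest window of a region. At Traf3ip3 it was 31.1 and 25.2 CPM in cDC replicates 1 and 2 and 31.1 and 26.3 CPM in pDCs, with a log2 fold (pDC minus cDC) of 0.03 ± 0.20 (SE, n = 2 per cell type, as for all folds here; adjusted p = 0.942 by edgeR's quasi-likelihood test). Capn10 (log2 fold 0.03 ± 0.22), Rab32 (0.13 ± 0.21) and Gm14548 (0.32 ± 0.22) were not called either. Gm14548 is a near copy of neighbouring paired-Ig receptor genes, so its reads may be shared with them.

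Of the called starts printed, 2 were higher in pDCs and 3 in cDCs. Areg had 1.79 and 2.76 CPM in cDCs and 11.0 and 5.96 CPM in pDCs, a log2 fold of 1.90 ± 0.36 (adjusted p = 0.000906). Vav1 had 9.26 and 10.5 CPM in cDCs and 28.5 and 15.4 CPM in pDCs, a log2 fold of 1.17 ± 0.25 (adjusted p = 0.00286). In both genes the groups did not overlap, as at 10071 of the 10077 called regions, and pDC replicate 1 was the highest library. Fbxo28 had 6.27 and 6.57 CPM in cDCs and 3.14 and 2.63 CPM in pDCs (log2 fold -1.14 ± 0.33, adjusted p = 0.0194). At Cd209d the values were 12.2 and 11.7 CPM in cDCs and 6.57 and 6.84 CPM in pDCs (log2 fold -0.84 ± 0.25, adjusted p = 0.023). At Cttnbp2nl, whose stretch holds GAGGAAGT and CCGGAAGT side by side, the log2 fold was -0.97 ± 0.33 (adjusted p = 0.0466). The call at Areg held whichever library was left out, but it and the other 4 were lost with library sizes from the repeat windows. Those at Fbxo28, Cd209d and Cttnbp2nl were also lost with a minimum fold of 1.5 and by DESeq2, and that at Cttnbp2nl with the replicate number as a block. Vav1 lost it without cDC replicate 1 (adjusted p = 0.0836), Fbxo28 and Cd209d without either cDC replicate (up to 0.192 and 0.278), and Cttnbp2nl without either cDC replicate or pDC replicate 1 (up to 0.427).

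PU.1 regions were far more frequent at 5′ than at 3′ ends. Of 16456 gene spans with a strand, 31.8% had a region at the 5′ end and 5.05% at the 3′ end, and 344 genes had both. In 50 bp steps, the share of 5′ ends with a listed window peaked at 186.9 per 1000 just before the start, against 21.1 per 1000 at 950 to 1000 bp before it. Around 3′ ends it was lowest at the end itself, 8.02 per 1000, and stayed at or below 14.6 per 1000 within 1000 bp. The highest window lay within 100 bp of the end in 45.0% of 5′ regions and 13.1% of 3′ regions. Of the 5′ regions whose highest window lay within 500 bp, it was on the upstream side in 51.6%.

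**Figure D1:**
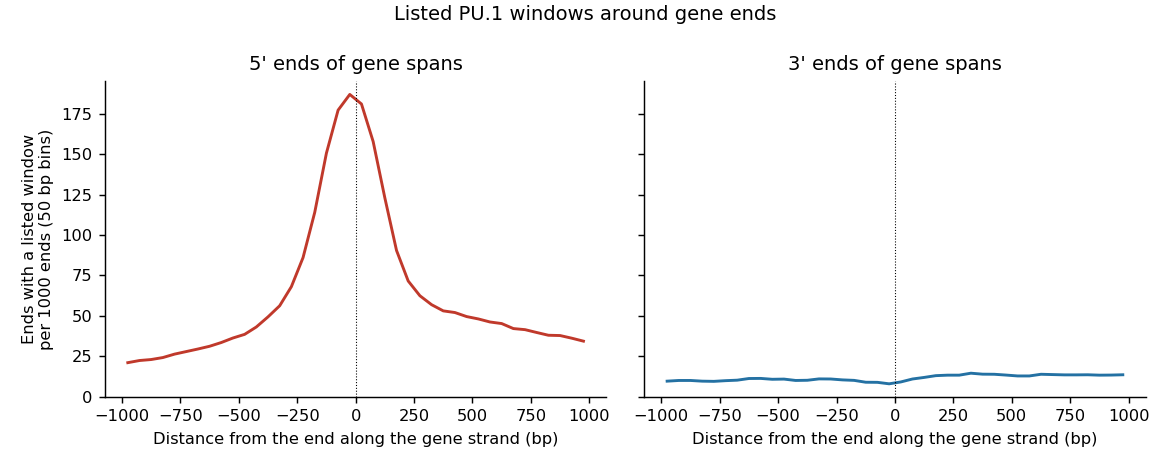
Number of gene ends with a deposited window per 1000 ends (y axis) in 50 bp bins of distance from the 5′ end (left) or 3′ end (right) along the gene's strand, where negative distances lie upstream of a start or inside the gene before its 3′ end. The 5′ curve peaks at 186.9 per 1000 ends beside the start, and the 3′ curve stays below 15 throughout.

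Signal at gene ends was compared with the input before the cell types were compared. With library sizes taken from totals over windows, 3782 of 7131 end regions tested (53%) had at least a 2-fold higher signal than the input in cDCs or pDCs (adjusted p below 0.05), against 45.9% of regions away from ends. Scaling by the repeat windows (those left out for their input count) gave 7421 of 7461 (99.5%), against 98.9% away from ends. The median input count was 1 at 5′ ends, where 28.0% of regions had none, and 2 at 3′ ends and elsewhere. The fit gave the 1 input the spread of the PU.1 libraries, and the cDC input stood in for a pDC one.

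Between pDCs and cDCs, signal at 5′ ends differed less often than elsewhere, and signal at 3′ ends differed about as often as elsewhere. Of 4634 tested 5′ regions, 138 were higher in pDCs (2.98%) and 97 in cDCs (2.09%), where 9.45% and 7.49% of all 59489 tested regions were called in those directions (16.9% in either). Of 597 tested 3′ regions, 49 were higher in pDCs (8.21%) and 55 in cDCs (9.21%). Called means an adjusted p below 0.05 over all tested regions, and 496 of the 5′ and 60 of the 3′ regions had too few counts to be tested. The remaining members lay near the 5′ regions: 5 higher in pDCs and 6 in cDCs of 147 at both kinds of end, and 49 and 38 of 1364 where the strand was not given. These shares are counts over regions of the same 4 libraries, and the difference between classes has no test over samples.

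The balance of directions among the 5′ calls depended on scaling and on single libraries, while the low share did not. With library sizes from the repeat windows, a scaling that moved the median log2 fold of all regions from 0.01 to -0.56, the calls for pDCs and cDCs numbered 4 and 75 at 5′ ends, and 12 and 45 at 3′ ends. Without pDC replicate 1 the 5′ calls were 56 and 85, without pDC replicate 2 they were 527 and 163, and without cDC replicate 1 or 2 they were 19 and 19 or 30 and 30. At 3′ ends the counts without pDC replicate 2 were 86 and 78, and without cDC replicates 1 and 2 they were 20 and 21, and 28 and 23. In each of these fits the share called at 5′ ends was below that away from ends, for example 13.5% against 25.7% without pDC replicate 2 and 0.805% against 6.07% without cDC replicate 1.

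The share called was also lower at 5′ ends when regions of like signal were compared. Among regions of at least 10 CPM on average, 7.56% of 357 at 5′ ends were called, against 22% of 59 at 3′ ends and 19.5% of 4038 away from ends. Below 1.5 CPM the shares were 2.5%, 12.2% and 11.9%. The sizes of the differences ran the same way: the middle 50% of log2 folds lay between -0.25 and 0.41 at 5′ ends, between -0.61 and 0.43 at 3′ ends and between -0.57 and 0.54 away from ends. A fold above 2 in either direction was measured in 9.50% of 5′ regions, 24.6% of 3′ regions and 26.7% of the others.

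**Figure D2:**
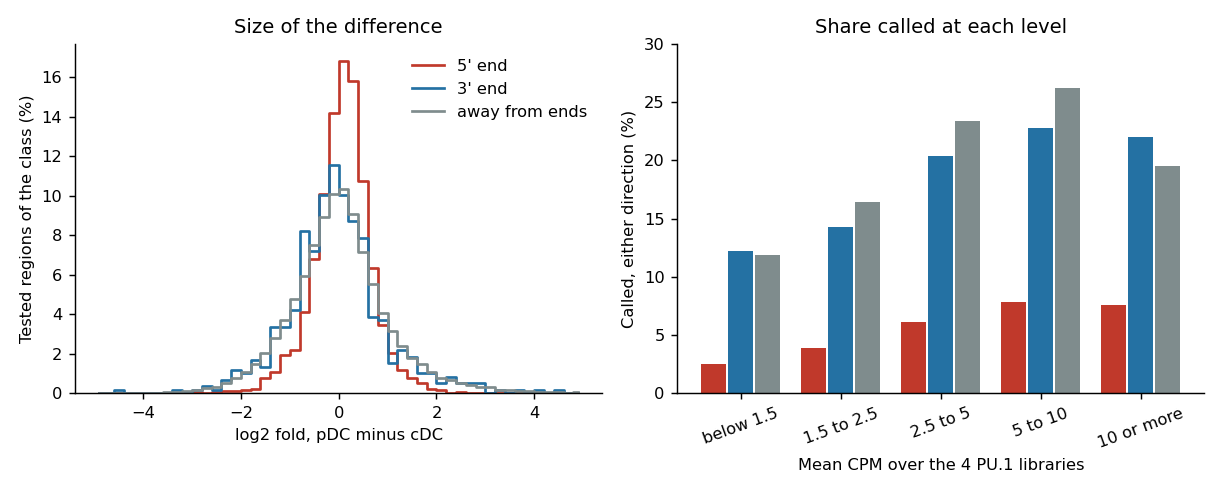
Left, share of tested regions (y axis, %) at each log2 fold of pDC over cDC (x axis, steps of 0.2) for 5′ ends, 3′ ends and autosomal regions away from ends. Right, share of regions called in either direction (y axis, %) by mean CPM over the 4 PU.1 libraries (x axis), where the 5′ bars reach 7.81% at most and the others lie between 11.9% and 26.2%.

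Libraries of different cell types were almost as alike at 5′ ends as libraries of the same type. Across the 4634 regions, which share the same libraries, Pearson's r of log2 CPM was 0.922 for the cDC replicates, 0.858 for the pDC replicates and 0.812 to 0.855 between cell types. Across 597 3′ regions it was 0.931 and 0.867 for replicates and 0.632 to 0.777 between cell types. The median 5′ level was 2.19 and 2.29 CPM in cDCs, 2.57 CPM in pDC replicate 1 and 2.10 CPM in pDC replicate 2. The pDC replicates thus lay on either side of both cDC replicates. The median 5′ log2 fold was 0.10, and it was -0.09 without pDC replicate 1 and 0.24 without pDC replicate 2.

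Calls were fewest right at a start. Where the highest window lay within 100 bp of the 5′ end, 3.53% of 2156 regions were called, and the share was 7.98% at 400 to 500 bp. Starts shared by genes on opposite strands gave 8 calls among 526 regions (1.52%), against 5.54% of 4098 at the start of 1 gene. As for the 500 bp limit, 9.36% of the 5′ regions whose nearest window lay in the last 100 bp inside it were called, and 5.79% of those in the first 100 bp outside. For 3′ ends these shares were 19.8% and 19.6%.

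The strongest 5′ ends included genes of the cytoskeleton and of the cell surface, and none of the 6 was called, which does not show equal signal. They were Gm14548, Actr2 (a subunit of the actin-nucleating ARP2/3 complex), Cd53 (a leukocyte tetraspanin), Sbno2, Kif3b (a kinesin motor subunit) and Icam1 (an adhesion molecule). Cd53 had 31.3 and 37.8 CPM in cDCs and 43.1 and 45.1 CPM in pDCs, a log2 fold of 0.35 ± 0.19 (adjusted p = 0.214). Icam1 had 31.2 and 29.9 CPM in cDCs and 43.1 and 27.4 CPM in pDCs, so its groups overlapped. The log2 fold nearest to a call was 0.58 ± 0.21 at Sbno2 (adjusted p = 0.0567). The highest windows of Actr2 and Icam1 lay 546 and 584 bp from the start, so their levels are not those at the start itself. Their highest windows within 500 bp gave log2 folds of 0.47 and 0.36 and were not called.

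The 5′ ends with the largest pDC excess included the pDC gene Ccr9. Ftdc1 had the largest fold, with 0.199 and 0.381 CPM in cDCs and 6.99 and 5.44 CPM in pDCs (log2 fold 4.35 ± 0.50, adjusted p = 1.34e-05). At Ccr9, a chemokine receptor of pDCs and gut-homing lymphocytes, the values were 0.598 and 0.381 CPM in cDCs and 5.99 and 2.46 CPM in pDCs (log2 fold 3.11 ± 0.54, adjusted p = 0.00049). Non-overlapping groups were a condition for entering this set, and at both genes the cDC libraries were close to zero. Of the 8 starts in this set, only Ftdc1 and St8sia2 were also above the input. P4ha3, a prolyl hydroxylase subunit (log2 fold 3.30 ± 0.50), Sla2, a Src-like adaptor that dampens antigen receptor signals (2.97 ± 0.63), Cybrd1, a ferric reductase (2.62 ± 0.63), and Ugt1a1, a glucuronosyltransferase (2.52 ± 0.66), followed. St8sia2, a polysialyltransferase, and Adamtsl2 completed the set of 8 with log2 folds of 2.43 ± 0.44 and 2.34 ± 0.51. Calls at Ftdc1, Ccr9, P4ha3 and St8sia2 held without any 1 library. Adamtsl2 lost its call without cDC replicate 2, Sla2 without pDC replicate 1, Cybrd1 without either cDC replicate, and Ugt1a1 without either cDC replicate or pDC replicate 2, with adjusted p up to 0.264. The calls at Adamtsl2 and Ugt1a1 were also lost with library sizes from the repeat windows. At P4ha3 the highest window lay 584 bp from the start. The highest one within 500 bp was also called, with a log2 fold of 3.39. Ugt1a1 shares its 3′ exons with the other Ugt1a genes, so its span start lies inside theirs.

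The 5′ ends with the largest cDC excess included antigen-presentation and lectin genes. Cd207, which encodes the lectin langerin, had 4.58 and 3.91 CPM in cDCs and 0.285 and 1.23 CPM in pDCs (log2 fold -2.54 ± 0.52, adjusted p = 0.00172). H2-Eb1, an MHC class II beta chain, had 2.39 and 1.43 CPM in cDCs and 0.285 and 0.175 CPM in pDCs (log2 fold -2.94 ± 0.72, adjusted p = 0.00688). Its pDC libraries held 3 counts in all, and the ratio of counts was 8.04 (95% exact interval 2.56 to 40.7, counting error only). At Clec4b2, a C-type lectin with close paralogs whose reads may be shared, the pDC libraries held 2 counts in all (ratio 12.4, interval 3.21 to 106, log2 fold -3.50 ± 0.81). Tbrg1 (-2.86 ± 0.75), 1810020O05Rik (-2.58 ± 0.60), Retreg1, an ER-phagy receptor (-2.38 ± 0.53), Dnajc13, an endosomal co-chaperone (-2.35 ± 0.54), and Psen2, a catalytic subunit of gamma-secretase (-2.30 ± 0.62), made up the rest of the 8. Only Cd207 and Dnajc13 were also above the input. Of these calls, Cd207 held without any 1 library. Leaving out cDC replicate 1 ended those at H2-Eb1, Clec4b2, Tbrg1, 1810020O05Rik, Dnajc13 and Psen2, and leaving out cDC replicate 2 ended those at H2-Eb1, Clec4b2, Tbrg1, 1810020O05Rik, Retreg1 and Psen2 (adjusted p up to 0.439). Clec4b2 and Psen2 also lost theirs without pDC replicate 1, and 1810020O05Rik, Retreg1 and Dnajc13 by DESeq2. At Retreg1 the highest window lay 508 bp from the start. The highest one within 500 bp was also called, with a log2 fold of -2.91.

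**Figure D3:**
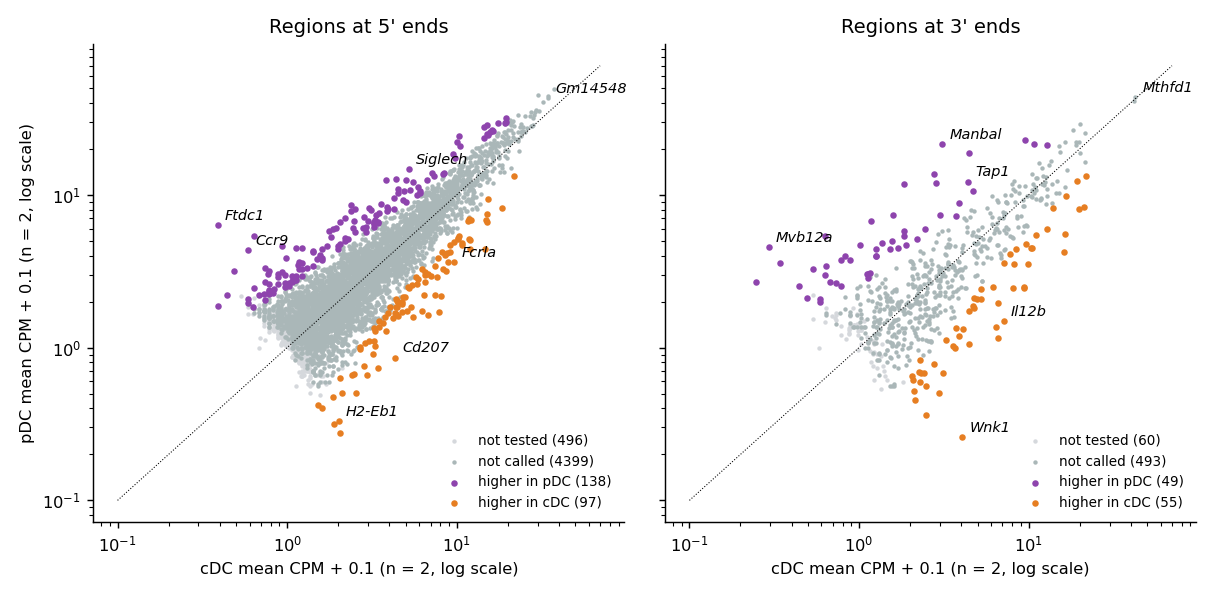
Mean CPM plus 0.1 of 2 pDC libraries (y axis, log scale) against that of 2 cDC libraries (x axis, log scale) for each region at a 5′ end (left) or 3′ end (right), where the dotted line marks equal values. Of the 5′ regions 138 and 97 are called higher in pDC and cDC, and of the 3′ regions 49 and 55.

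The 4 strongest 3′ regions were not called. They were those of Mthfd1, a folate enzyme, and Wdr12, with means of 42.9 and 41.4 CPM over the 4 libraries, and those of Zc3h12a, the RNase Regnase-1, and Ctla4, a coinhibitory receptor of T cells, with 24.4 and 23.4 CPM. The 6 strongest starts had means of 32.9 to 43.2 CPM. Mthfd1 had 42.2 and 42.3 CPM in cDCs and 45.8 and 41.2 CPM in pDCs, with a log2 fold of 0.04 ± 0.18 (adjusted p = 0.911). Its highest window lay 714 bp from the end of the gene, and the highest window within 500 bp gave a log2 fold of 1.15 (adjusted p = 0.127), so the level and fold of the region are not those at the end itself. At Ctla4 the distance was 524 bp. Zc3h12a came nearest to a call, with a log2 fold of 0.54 ± 0.20 (adjusted p = 0.0675).

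Large differences at 3′ ends ran in both directions. Mvb12a, a subunit of the ESCRT-I sorting complex, had 0.0996 and 0.286 CPM in cDCs and 5.71 and 3.16 CPM in pDCs, with its highest window 470 bp before the end of the gene (log2 fold 4.43 ± 0.60, adjusted p = 6.61e-05). Manbal had 2.39 and 3.62 CPM in cDCs and 27.1 and 15.6 CPM in pDCs (log2 fold 2.83 ± 0.30, adjusted p = 5.89e-06). The region shared by B3gat3 and Rom1 (4.02 ± 0.67), Stra6, a retinol transport receptor (3.79 ± 0.61), and Rapgef3, an exchange factor activated by cAMP (3.29 ± 0.48), were also higher in pDCs. All 5 calls held without any 1 library, and Stra6 was not above the input. At Manbal the highest window lay 558 bp from the end, and the highest one within 500 bp was also called (log2 fold 2.46). The region of B3gat3 and Rom1 held 3 cDC counts in all, so its ratio of 17.8 has a wide interval (5.58 to 90.6).

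Among the 3′ ends higher in cDCs, Wnk1, a kinase of ion transport, had 4.18 and 3.72 CPM in cDCs and 0.143 and 0.175 CPM in pDCs. Its pDC libraries held 2 counts in all, so the ratio of 25.1 has a wide interval (6.72 to 210, log2 fold -4.52 ± 0.65, adjusted p = 0.000105). Zfp791 had 6.17 and 6.86 CPM in cDCs and 0.714 and 1.4 CPM in pDCs (log2 fold -2.65 ± 0.42, adjusted p = 0.000217). The region shared by Baz2a and Rbms2 (-3.25 ± 0.73) and those of the olfactory receptor genes Olfr715b (-2.82 ± 0.59) and Olfr715 (-2.63 ± 0.76) completed the set. The last 2 are near-identical neighbours, so their reads may be shared. Calls held without any 1 library at Wnk1, Zfp791 and Olfr715b, but not at Baz2a and Rbms2 without cDC replicate 1 (adjusted p = 0.0872), nor at Olfr715 without cDC replicate 2 or pDC replicate 1 (up to 0.497). The call at Baz2a and Rbms2 was also lost by DESeq2, that at Olfr715 when windows were summed, and Wnk1 and Olfr715 were not above the input.

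**Figure D4:**
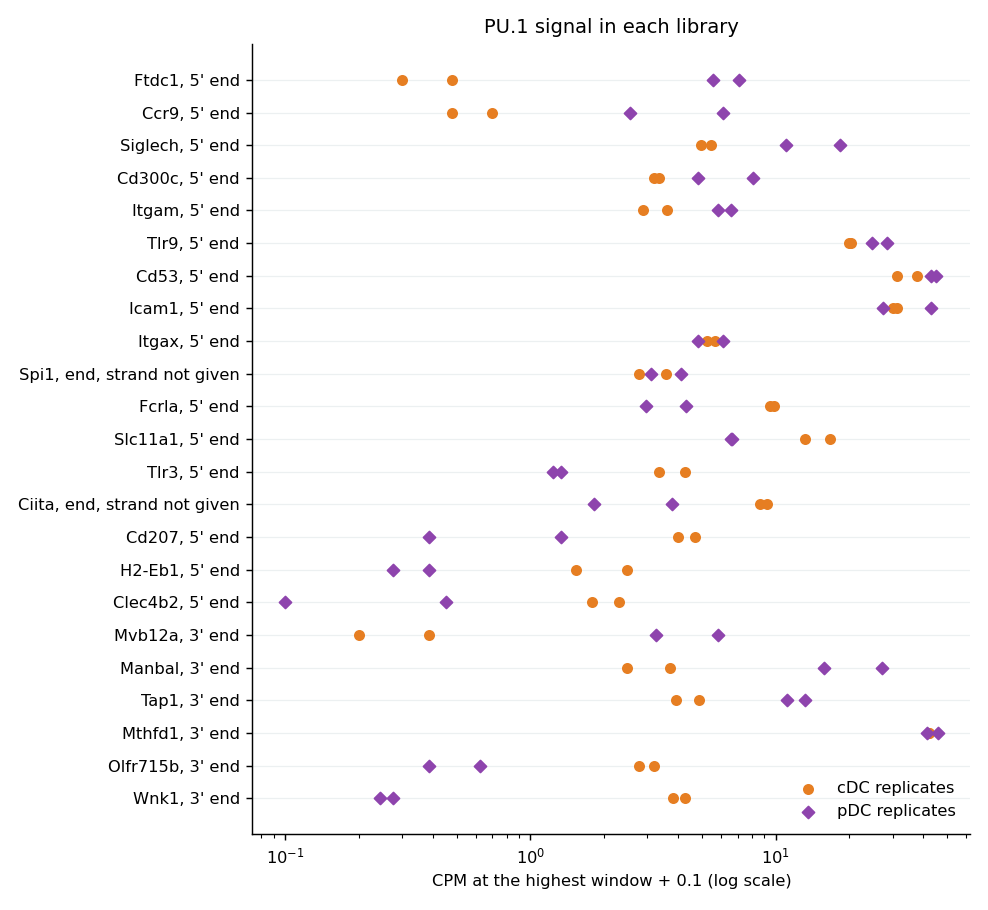
CPM plus 0.1 at the highest window (x axis, log scale) in each of 2 cDC (circles) and 2 pDC libraries (diamonds) for 23 end regions (y axis). From Ftdc1 to Wnk1 the groups are apart at called regions, and they overlap at Icam1, Itgax, Spi1 and Mthfd1.

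Among genes with regions at both ends, calls were again scarcer at the start. Of 329 genes with separate 5′ and 3′ regions, 24 of 310 tested at the 5′ end had a call there (7.74%) and 55 of 302 at the 3′ end (18.2%). In 214 genes neither end was called, and 46 had a called 3′ end with an uncalled 5′ end, 22 higher in pDCs and 24 in cDCs. One of the 46 is Il12b, the p40 subunit of interleukin 12, chosen here after its values were seen. Its 3′ region had 8.56 and 5.53 CPM in cDCs and 0.856 and 1.93 CPM in pDCs (log2 fold -2.37 ± 0.42, adjusted p = 0.00056), whereas its 5′ region had a log2 fold of -1.73 ± 0.62 (adjusted p = 0.0573). The difference between the 2 ends of a gene was not tested.

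Few genes were called at both ends, and they are named after their values were seen. Ftdc1, Sla2 and Vamp1 were higher in pDCs at both, with 3′ log2 folds of 2.36 ± 0.32, 2.76 ± 0.36 and 2.13 ± 0.30. The 3 others had opposite signs: Itpr2, an IP3 receptor, was higher in pDCs at its 5′ end (0.70 ± 0.22) and in cDCs at its 3′ end (-0.78 ± 0.24), and Manbal and Tifab were higher in cDCs at their 5′ ends (-1.09 ± 0.31 and -1.16 ± 0.33) and in pDCs at their 3′ ends (2.83 ± 0.30 and 1.97 ± 0.51). The 5′ calls of Vamp1, Itpr2, Manbal and Tifab, and the 3′ calls of Itpr2 and Tifab, were lost without cDC replicate 1, among other libraries (adjusted p up to 0.391). The same calls, and that at the 3′ end of Vamp1, were lost with library sizes from the repeat windows. Of all autosomal regions away from ends, 18.5% were called. Further inside genes the share was near that where the 5′ region was not called (17.5% of 7797) or was higher in pDCs (19.5% of 415). It was 27.6% of 163 regions, which lay in 64 genes, where the 5′ region was higher in cDCs. These differences were not tested.

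Genes known from the 2 cell types had an end region more often than all genes, and a larger share of those regions was called by edgeR than the 6.48% of all tested end regions. Of autosomal protein-coding genes, 34.3% had any end region, compared with 20 of 30 genes on a cDC identity list and 13 of 29 on a pDC identity list. Having an end region is not particular to these lists, as 77.8% of housekeeping and 85.4% of ribosomal protein genes had one. The lists are short, and no difference between them and all genes was tested. Of 24 tested regions on the cDC list, pDCs were higher in 2 and cDCs in 3. On the pDC list pDCs were higher in 4 of 17 and cDCs in 2. DESeq2 called 1 of 21 and 3 of 16 on these lists. Its counts, here and on the lists below, stand beside its own shares of 1.26% at 5′ ends, 8.11% at 3′ ends and 6.12% of all regions. Siglech, the pDC lectin Siglec-H, had 4.88 and 5.34 CPM in cDCs and 18.3 and 10.9 CPM in pDCs at its 5′ end (log2 fold 1.52 ± 0.27, adjusted p = 0.000646), a call that held without any 1 library. Both 5′ regions of Cd300c, an immunoglobulin-like receptor, were higher in pDCs (log2 folds 1.02 ± 0.33 and 1.42 ± 0.40). On the same list, Fcrla, an intracellular Fc receptor-like protein, had 9.36 and 9.72 CPM in cDCs and 2.85 and 4.21 CPM in pDCs (log2 fold -1.45 ± 0.30, adjusted p = 0.0022), and Slamf9 was also higher in cDCs (-1.53 ± 0.49). With library sizes from the repeat windows Siglech and Cd300c were not called, by DESeq2 Cd300c and Slamf9 were not, and Cd300c and Slamf9 also lost their calls without either cDC replicate, and Slamf9 and the stronger Cd300c region without pDC replicate 1.

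On the cDC list, 2 calls at gene ends went to pDCs. Itgam, which encodes CD11b, had 2.79 and 3.52 CPM in cDCs and 5.71 and 6.49 CPM in pDCs (log2 fold 0.94 ± 0.32, adjusted p = 0.0486), and Clec10a, a galactose-type lectin, had a log2 fold of 1.24 ± 0.27 (adjusted p = 0.00329). Both 5′ regions of Tlr3, the sensor of double-stranded RNA, were higher in cDCs (-1.80 ± 0.58 and -1.64 ± 0.44), as was Zfp366, which encodes DC-SCRIPT (-1.51 ± 0.51). The calls at Itgam, Clec10a, Tlr3 and Zfp366 were each lost without cDC replicate 1, all but the stronger Tlr3 region also without cDC replicate 2, Zfp366 and the weaker Tlr3 region also without pDC replicate 1, and Itgam and the weaker Tlr3 region also without pDC replicate 2. With library sizes from the repeat windows Itgam and Clec10a were not called, and Itgam and Zfp366 were not called by DESeq2, with a minimum fold of 1.5 or with summed windows. Itgax, which encodes CD11c, had 5.58 and 5.14 CPM in cDCs and 5.99 and 4.73 CPM in pDCs at its stronger 5′ region, so the groups overlapped. The highest window of that region lay 570 bp from the start. Its highest window within 500 bp gave a log2 fold of -0.24 and was not called.

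Of 16 tested end regions on a list of dendritic and myeloid regulators, Zfp366 was the 1 call, a share near the 6.48% of all end regions. Another 2 had an unadjusted p below 0.05, and DESeq2 called 0 of 15. Spi1 itself had 3.49 and 2.67 CPM in cDCs and 3.0 and 4.03 CPM in pDCs (log2 fold 0.18 ± 0.37, adjusted p = 0.799). At Irf4 the 3′ region had a log2 fold of 0.69 ± 0.27 (adjusted p = 0.0836), and the 5′ region had too few counts to be tested. Flt3, the receptor for the culture cytokine, had a log2 fold of 0.50 ± 0.36 (adjusted p = 0.371), and Csf1r one of 0.04 ± 0.28 at its stronger region. No end region was listed for Irf8, Tcf4, Spib or Bst2.

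Genes of MHC class II presentation split between the cell types. Of 21 tested regions, edgeR called 4 higher in cDCs and 1 in pDCs, beside 6.48% of all end regions. DESeq2 called 1 of 18. Ciita, the class II transactivator, had 9.16 and 8.57 CPM in cDCs and 1.71 and 3.68 CPM in pDCs at one end of its span (log2 fold -1.75 ± 0.34, adjusted p = 0.00131), and the call held without any 1 library. Cd74, the invariant chain (-0.99 ± 0.34), H2-Eb1 and the upstream region of H2-Aa (-1.32 ± 0.45) were also higher in cDCs, while H2-DMb2, a chain of the peptide-loading factor H2-DM, was higher in pDCs (1.4 ± 0.34). The calls at Cd74, H2-Aa and H2-DMb2 were lost without cDC replicate 1 or pDC replicate 1 (adjusted p up to 0.509), those at Cd74 and H2-Aa also without cDC replicate 2, and that at H2-Aa also without pDC replicate 2. All 3 were also lost by DESeq2 and with library sizes from the repeat windows. On the class I list, Tap1, a peptide transporter subunit, was higher in pDCs at its 3′ end, with 4.78 and 3.81 CPM in cDCs and 13.1 and 11.0 CPM in pDCs (log2 fold 1.5 ± 0.27, adjusted p = 0.000678), and was not called with library sizes from the repeat windows. Its highest window lay 570 bp from the end, and the highest window within 500 bp was not called (log2 fold 0.88, adjusted p = 0.078). Tapbpl, a peptide editor, was the other of 17 tested (1.45 ± 0.43), a call lost by DESeq2, with the repeat windows and without either cDC replicate or pDC replicate 1.

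Known PU.1 target genes had end regions in 30 of 35 cases, and edgeR called 5 of 34 tested regions, beside 6.48% of all end regions. Calls went in both directions, Itgam above being one to pDCs, and DESeq2 called 4 of 33. Slc11a1, a metal transporter of phagosomes, was higher in cDCs in both 5′ regions, at 16.6 and 13.1 CPM in cDCs and 6.57 and 6.49 CPM in pDCs in the stronger one (log2 fold -1.19 ± 0.25, adjusted p = 0.00231), a call lost without cDC replicate 1 and with library sizes from the repeat windows. The highest window of that region lay 542 bp from the start. Its highest window within 500 bp was also called, with a log2 fold of -1.05. Ribosomal protein genes had end regions in 41 of 48 cases. Housekeeping genes had them in 21 of 27 cases and 0 of 24 tested regions was called by edgeR (1 had an unadjusted p below 0.05), nor any of 20 by DESeq2.

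Among sensing genes, Tlr9 carried strong signal that was not called, with 20.2 and 19.8 CPM in cDCs and 28.5 and 24.6 CPM in pDCs (log2 fold 0.41 ± 0.20, adjusted p = 0.167). Of 19 tested regions on the list of sensing and interferon genes, pDCs were higher in 1 and cDCs in 2, the Tlr3 regions above. Of all tested end regions 6.48% were called by edgeR, and DESeq2 called 1 of 17 on this list. The region higher in pDCs was that of Traf3, an adaptor of interferon induction (1.74 ± 0.38, adjusted p = 0.00284). Its call was lost without cDC replicate 1 or pDC replicate 1 and with library sizes from the repeat windows. Of 22 tested regions of chemokine and cytokine receptor genes, Ccr9 was the 1 call, a share near the 6.48% of all end regions.

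Lymphocyte, macrophage and neutrophil markers had end regions about as often as all genes (34.3%). Erythroid, megakaryocyte and mast cell genes had them in 26.3% of cases, too few genes to show a lower share, and genes of non-haematopoietic tissues in 7.69%. These differences were not tested. Of 26 genes of non-haematopoietic tissues, 2 had an end region, and the 3′ region of Apoa1 was higher in cDCs (-1.18 ± 0.35, adjusted p = 0.0234). B cell genes had one in 7 of 19 cases, with Vpreb3 higher in pDCs (1.49 ± 0.38), T and NK cell genes in 7 of 21, macrophage and neutrophil genes in 8 of 21, and erythroid, megakaryocyte and mast cell genes in 5 of 19, with Itga2b higher in cDCs (-1.85 ± 0.39). By edgeR 0 of 8 tested regions was called on the T and NK cell list (3 had an unadjusted p below 0.05) and 0 of 6 on the macrophage and neutrophil list (0 below 0.05), and DESeq2 called none on either. Of all tested end regions 6.48% were called by edgeR, so lists this short cannot show a lower share. The calls at Apoa1 and Vpreb3 were lost without either cDC replicate, and that at Apoa1 also without pDC replicate 2, and both by DESeq2 and with library sizes from the repeat windows. Whether other cells in the cultures contributed to these values was not tested.

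PU.1 letters became more frequent with the strength of the signal at a start. The promoter sequence lay within 500 bp of the span's 5′ end for 14216 genes, and GAGGAAGT was found in 3.33% of these promoters, in 2.34% of those without a region and in 5.40% of those with one. From the weakest to the strongest quartile of signal the share was 1.92%, 1.92%, 4.55% and 13.2%. Where a region overlapped the 300 bases, the median level was 6.78 CPM with the letters and 2.55 CPM without. The nearest match lay a median of 19 bp from the highest window, and within 50 bp of it in 85.4% of 233 promoters. Some closeness follows from using overlapping regions only. By the same measure the share within 50 bp was 62.8% for CCGGAAGT, 49.5% for the ETS-IRF composite and 48.5% for GGGCGG, a GC box. In each of the 4 libraries the median level was higher with GAGGAAGT than without, for example 6.47 against 2.39 CPM in cDC replicate 1 and 5.61 against 2.28 CPM in pDC replicate 2.

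The ETS letters of CpG-rich starts followed presence rather than strength. CCGGAAGT was in 12.8% of promoters with a region and 2.18% of those without, and in 11.2% to 13.9% of each strength quartile. It was in 13.3% of promoters whose region was not called, 2.65% of those higher in pDCs and 6.67% of those higher in cDCs. The letters hold a CpG, and the median ratio of observed to expected CpG was 0.793 with a region and 0.39 without. By call it was 0.798 for uncalled regions, 0.732 for those higher in pDCs and 0.527 for those higher in cDCs. Whether CpG content accounts for these shares was not tested. The ETS-IRF composite letters were in 2.64% of all promoters, 9.33% of the 75 with a region higher in cDCs and 1.77% of the 113 with one higher in pDCs. GGGCGG, the GC box, was in 47.4% of all promoters and in 65.8% of those with a region.

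Calls were more frequent at CpG-poor starts. Where the promoter had a CpG observed-over-expected ratio below 0.4, 13% of 385 regions were called, 23 higher in pDCs and 27 in cDCs. At 0.6 or more, 2.10% of 2481 were called, 43 in pDCs and 9 in cDCs. The median level was 3.6 CPM in the first group and 2.86 CPM in the second, and their median input counts were 2 and 1. These shares describe letters in a fixed window and were not tested.

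**Figure D5:**
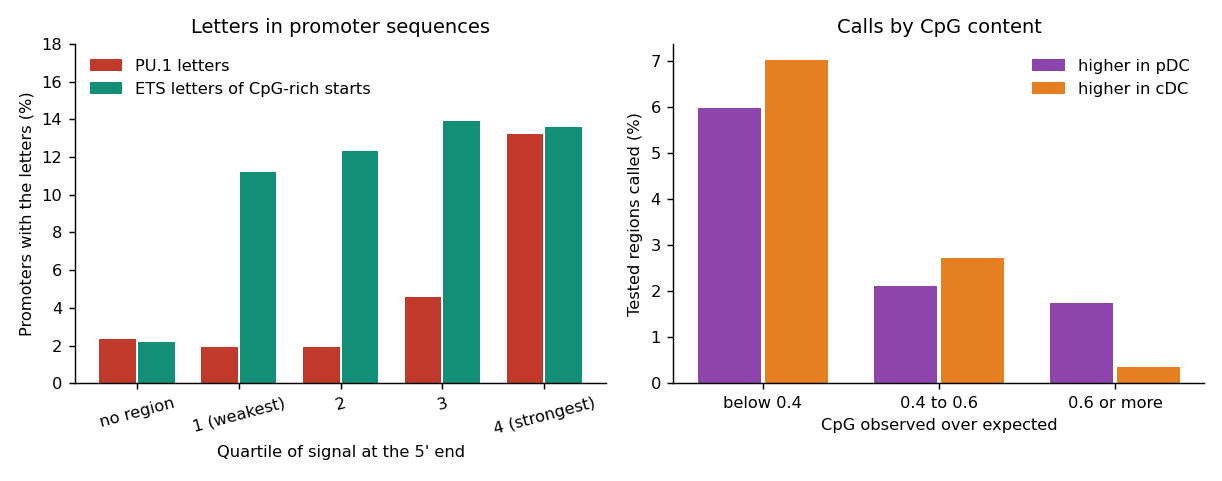
Left, share of promoters (y axis, %) holding GAGGAAGT or CCGGAAGT where no region lay at the 5′ end and by quartile of mean CPM (x axis). Right, share of promoters with a called region (y axis, %) in each direction, among promoters overlapped by a tested 5′ region. The x axis gives the promoter's CpG observed-over-expected ratio, and calls in either direction fall from 13% to 2.10%.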

How the data were processed

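The deposited values are read counts per 10 bp window for 5 libraries, with no normalisation by the authors. The submitters' processing notes name Subread 1.4.4 and the build mm10. For read extension, read filters and the choice of windows, nothing is stated in the labels used here.

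Deposited windows numbered 329996 and included 146 repeat windows with an input count of at least 1000, which were left out. Windows at most 100 bp apart were joined, and a region's value was the counts of its highest window over the 4 PU.1 libraries. Strand came from the RefSeq promoter table. pDCs and cDCs were compared with edgeR 4.0.16 (R 4.3.3, limma 3.58.1): TMM factors on library sizes without repeat windows, filterByExpr at a minimum count of 10 (59489 of 67237 regions tested), the quasi-likelihood test and Benjamini-Hochberg adjustment at 0.05 over all tested regions. SEs are those implied by the F statistic. The biological coefficient of variation was 0.16. The fit was tested on simulated data. An exact permutation test of 2 against 2 libraries cannot give a two-sided p below 0.333, so such tests were not used.

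Named regions were those of 18 dendritic cell and myeloid genes, the called regions with the largest folds (8 per direction at 5′ ends and 5 at 3′ ends, non-overlapping groups, at least 1 CPM on average), the strongest 6 and 4, and called regions of 15 gene lists written from textbook knowledge. The values of 2 called regions are not reported here. The members, lists and rules were chosen with earlier results of these data known. Alternatives were other scalings, filters, region values and distances, DESeq2 1.42.0, a fold of at least 1.5, a replicate block and leaving out each library.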

Additional observations from a re-analysis of the deposited data

How the results depend on the processing

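The number of calls at gene ends depended on the settings. For 5′ regions higher in pDCs and in cDCs (138 and 97 of 4634 tested), a minimum fold of 1.5 left 45 and 31. DESeq2 gave 31 and 20 of 4046. A mean of at least 30 counts gave 86 and 61 of only 1606 tested, so the share called rose from 5.07% to 9.15%. For 3′ regions (49 and 55 of 597) the minimum fold left 32 and 25, and DESeq2 gave 24 and 18 of 518. The filter on 30 counts gave 19 and 32 of 201, a share of 25.4% against 17.4%. Library sizes from the repeat windows left 4 regions higher in pDCs at 5′ ends and 12 at 3′ ends, and raised the regions above the input from 3782 to 7421. With 250 bp in place of 500 bp there were 62 higher in cDCs of 3734 tested at 5′ ends, and 26 and 33 of 380 at 3′ ends. With 1000 bp there were 158 of 5886, and 84 and 83 of 972. Leaving out 1 library gave 19 to 527 and 19 to 163 calls at 5′ ends and 20 to 86 and 21 to 78 at 3′ ends. With 2 libraries left in one group and 1 in the other, the lone library was assumed to vary like the pair. Those fits also test other numbers of regions.

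With the replicate number as a block the counts were 153 and 113 at 5′ ends and 53 and 58 at 3′ ends. Across tested regions, the deviations of same-numbered libraries from their group means had a correlation of 0.0227. That value cannot show whether such libraries shared a culture or batch, and the labels give only a replicate number. The block ended the call at Cttnbp2nl.

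None of the 50 called regions named by rule changed sign where a setting gave a value, but calls were lost: 18 of 48 with library sizes from the repeat windows, 17 of 42 by DESeq2, 13 of 50 with a minimum fold of 1.5, 8 with summed windows, 7 by the Simes method and between 5 and 27 without 1 library. Some uncalled regions changed sign. With library sizes from the repeat windows the log2 fold was -0.45 at Mthfd1, -0.30 at Ctla4, -0.48 and -0.28 at the Itgax regions, -0.55 at H2-Aa, -0.21 at Icam1, -0.09 at Gm14548, -0.19 at Kif3b, -0.18 at Cd53, -0.03 at Actr2, -0.07 at Tlr9, -0.02 at Flt3, -0.51 at Csf1r and -0.38 at Spi1. With library-size scaling it was -0.00 at Mthfd1, -0.04 at Itgax and -0.01 at Csf1r. Summing windows gave -0.06 at Itgax and -0.02 at Csf1r, the Simes method -0.39 and -0.27, the highest window within 500 bp -0.24 at Itgax, and the block -0.00 there. Leaving out 1 library in turn, folds ran from -0.33 to 0.23 at Wdr12, -0.02 to 0.12 at Mthfd1, -0.16 to 0.17 and -0.03 to 0.64 at the Itgax regions, -0.59 to 0.65 at H2-Aa, -0.14 to 0.5 at Icam1, -0.03 to 0.61 at Gm14548, -0.12 to 0.21 at Csf1r and -0.03 to 0.41 at Spi1. The cause of these changes was not tested. A gene end with 2 or 3 counts in a cell type had an interval on its ratio that spanned more than an order of magnitude. This held for low pDC counts and for the low cDC counts of B3gat3 and Rom1 (5.58 to 90.6).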
